A study of Mus musculus with 12 samples.

Results

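Dek and 7 genes of the high mobility group (HMG) families, Hmgb1, Hmgb2, Hmgb3, Hmga1, Hmga2, Hmgn1 and Hmgn2, were taken by symbol from the count table, and all 8 were present among its 24421 genes. Footprints, the ribosome-protected fragments (RPF) that are left of an mRNA after nuclease treatment, and total RNA had been sequenced from B16 cells, a mouse melanoma line. The cells were grown in DMEM with serum and were transduced with lentivirus carrying either an shRNA without a relevant target (shControl) or an shRNA against Elp3, the catalytic subunit of the Elongator complex (shElp3, named sh309 in the labels). Each fraction had 3 libraries per shRNA, lettered A, B and C, and the labels link the footprint library and the RNA library of a culture, which gives 6 cultures. A single hairpin against Elp3 was used, all groups carried a lentiviral shRNA, and the labels do not say whether the lettered cultures were separate transductions, so p-values measure only the spread between these cultures.

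HMG proteins are small, abundant chromatin proteins that bind DNA or nucleosomes with little sequence preference. The HMGB proteins bend DNA through paired HMG boxes, the HMGN proteins bind the nucleosome core and loosen chromatin compacted by linker histone, and the HMGA proteins grip AT-rich DNA through AT hooks. DEK is a chromatin protein outside these families that binds structured DNA, acts as a histone chaperone and is often abundant in dividing and tumour cells. It enters here because its mRNA has been reported as a target of the enzymes that modify the wobble uridine (U34) of tRNAs, a pathway that Elongator begins. HMGB2 and DEK are known for high levels in proliferating cells, and HMGB1, when released, acts as an extracellular danger signal.

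The 8 genes are protein coding and lie on 8 chromosomes of GRCm38.p6: Dek at chr13:47084767-47107530, Hmgb1 at chr5:149046702-149053057, Hmgb2 at chr8:57511843-57515999, Hmgb3 at chrX:71555917-71560673, Hmgn1 at chr16:96121588-96127725, Hmgn2 at chr4:133964739-133967991, Hmga1 at chr17:27556574-27563672 and Hmga2 at chr10:120361268-120476469. Counts were summed per gene, so no value below refers to an exon or an isoform. The 250 bases before the RefSeq start of 5 of them are shown, because these genes had the largest differences in RNA between the shRNAs. Capitals mark the CCAAT box (CCAAT on either strand) and the CHR element (TTTGAA on either strand), the latter known from promoters of genes active in late cell cycle.
Hmgb2, chr8:57511593-57511842, plus strand: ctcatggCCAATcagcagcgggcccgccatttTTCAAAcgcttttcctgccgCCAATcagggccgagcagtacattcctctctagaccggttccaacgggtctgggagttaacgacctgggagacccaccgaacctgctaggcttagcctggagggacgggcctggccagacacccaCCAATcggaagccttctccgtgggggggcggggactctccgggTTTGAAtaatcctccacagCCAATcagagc
Hmgb3, chrX:71555667-71555916, plus strand: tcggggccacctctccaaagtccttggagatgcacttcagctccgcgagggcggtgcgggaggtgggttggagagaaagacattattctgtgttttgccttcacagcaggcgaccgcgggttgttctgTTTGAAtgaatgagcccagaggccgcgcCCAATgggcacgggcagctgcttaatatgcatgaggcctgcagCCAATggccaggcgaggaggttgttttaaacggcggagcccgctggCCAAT
Hmgn2, chr4:133967992-133968241, minus strand: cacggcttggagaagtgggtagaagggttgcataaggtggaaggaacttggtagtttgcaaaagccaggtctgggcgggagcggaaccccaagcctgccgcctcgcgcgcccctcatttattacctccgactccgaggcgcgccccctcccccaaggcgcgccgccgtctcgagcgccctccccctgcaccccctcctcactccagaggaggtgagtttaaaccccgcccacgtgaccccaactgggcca
Hmgb1, first of its starts in the table, chr5:149053058-149053307, minus strand: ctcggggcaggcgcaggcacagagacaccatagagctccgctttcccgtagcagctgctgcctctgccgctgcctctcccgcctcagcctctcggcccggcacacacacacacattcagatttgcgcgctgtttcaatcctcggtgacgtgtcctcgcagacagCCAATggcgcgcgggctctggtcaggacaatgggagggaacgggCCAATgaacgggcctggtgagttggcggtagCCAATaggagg
Dek, chr13:47106222-47106471, minus strand: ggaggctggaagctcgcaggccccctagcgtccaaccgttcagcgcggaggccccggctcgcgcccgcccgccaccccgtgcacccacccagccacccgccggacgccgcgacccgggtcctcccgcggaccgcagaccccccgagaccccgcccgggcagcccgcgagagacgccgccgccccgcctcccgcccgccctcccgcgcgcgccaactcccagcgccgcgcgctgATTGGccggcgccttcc
Each is written 5′ to 3′ on the strand of the gene, as RefSeq gives it. The start used for Dek lies inside its annotated span, so other Dek transcripts begin further upstream.

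The Hmgb2 window held 4 CCAAT boxes, and 0.840% of 32851 mouse promoter windows of the same length held 4 or more. The windows of Hmgb1 and Hmgb3 held 3 each (3 or more in 2.79% of all windows), that of Hmgn1 held 2 (2 or more in 10.1%) and that of Dek held 1 (1 or more in 33.8%). The windows of Hmgn2, Hmga1 and Hmga2 held none, and neither did the window of the other listed start of Hmgb1. In Hmgb1 and in Hmgb2 the box nearest the start spanned bases -11 to -7, and in Hmgb3 it spanned -5 to -1. TTTGAA occurred at 2 places in Hmgb2, at -218 to -213 on the opposite strand and at -30 to -25, and at 1 place in Hmgb3, against 16.0% of all windows with at least 1. E2F-type sites (TTTCCCGC, TTTCGCGC, TTTGCCGC or TTTGGCGC, both strands) were found in none of the 8 genes' windows and in 1.86% of all, and neither was TATAAA (both strands; 12.4% of all). No pair of these motifs shares its bases in the windows shown, and a match of letters is a description of the sequence.

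Total counts ran from 7914369 to 16527864 in RNA libraries and from 7619269 to 10998570 in footprint libraries. Letter A stood apart from B and C in 3 of the 4 groups. Across genes, control A had Spearman correlations of 0.891 to 0.899 with the other control RNA libraries, which correlated at 0.993 with each other, and of 0.942 to 0.948 against 0.992 in control footprints. In shElp3 RNA the values were 0.940 to 0.946 against 0.987, and in shElp3 footprints all 3 lay between 0.981 and 0.991. Levels are given as CPM, counts relative to the library total after TMM scaling. Elp3 RNA was 78.7 ± 13.3 CPM with the control shRNA and 37.3 ± 3.42 CPM with shElp3 (SD, n = 3; -1.08, adjusted p = 0.0831), and its footprints fell from 105 ± 11.4 to 55.0 ± 5.86 CPM (adjusted p = 0.0249, edgeR). Of the melanocyte markers, all 10 were counted in every group, and their RNA summed to 11945 to 16451 CPM in control and 9295 to 10766 CPM in shElp3. All 10 had a log2 fold change below 0 in both fractions (median -0.62 in RNA and -0.79 in footprints), with Pmel called lower in RNA and Pmel and Pax3 in footprints, and the part of this list in the results was not tested. Markers of macrophages and leukocytes summed to at most 77.3 CPM in any library, those of fibroblasts to 43.1, of epithelium to 1.38 and of endothelium to 0.713, and Ptprc, Epcam and Krt14 were among those at 0 in a whole group. The fibroblast sum was 24.8 to 26.6 CPM in control and 35.3 to 40.4 CPM in shElp3 footprints, where the collagen gene Col1a1 rose by 1.48 (adjusted p = 0.0203) and Dcn and Lum were at 0, and its part in the results was not tested. In bulk libraries, fewer cells of one kind and less RNA per cell cannot be told apart.

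Hmgb2 had the largest difference of the 8 genes. It encodes the HMGB protein that is most tied to proliferating tissue. Its RNA was 54.5, 118 and 118 CPM in control cultures A, B and C and 18.4, 25.7 and 20.7 CPM in shElp3 cultures A, B and C. All shElp3 values lay below all control values, and control A lay closer to the shElp3 group than controls B and C did. The group means were 97.0 ± 36.8 and 21.6 ± 3.73 CPM (SD, n = 3), so the shElp3 mean was 22.3% of control. Hmgb2 RNA fell by 2.17 on the log2 scale (SE 0.35, adjusted p = 0.0397, edgeR quasi-likelihood), with 0.815% of the 12274 tested genes below it. Its footprints were 73.5, 339 and 319 CPM in control A, B and C and 48.2, 73.9 and 63.4 in shElp3. The groups touched here, since control A lay just under shElp3 B. The footprint difference was -1.98 (SE 0.51, adjusted p = 0.0690). Matched by letter, shElp3 lay below control, with differences of -0.61 in A, -2.20 in B and -2.33 in C. Letters were not taken to pair in footprints, so footprint differences within a letter, here and below, are only descriptions. Without control A, Hmgb2 footprints fell by 2.42 (adjusted p = 1.8e-05). Without any other single library Hmgb2 did not pass in either fraction in edgeR. Its adjusted p then ran from 0.141 to 0.249 in RNA and from 0.154 to 0.249 in footprints.

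Hmgb3, an HMGB paralog expressed mainly in embryos, stem cells and tumours, passed the test in footprints. Its RNA was 39.7, 39.3 and 33.7 CPM in control A, B and C and 18.3, 18.8 and 15.3 CPM in shElp3, and its footprints were 69.2, 113 and 109 CPM in control and 40.4, 47.8 and 45.8 CPM in shElp3. The shRNA groups did not overlap in either fraction, and control A was the lowest control in footprints but not in RNA. Hmgb3 footprints fell by 1.12 on the log2 scale (SE 0.21, adjusted p = 0.0330), from 97.1 ± 24.3 to 44.7 ± 3.82 CPM (SD, n = 3). The footprint difference did not pass when any 1 library other than control A was left out (adjusted p from 0.099 to 0.156, edgeR). The RNA difference was of like size, -1.10 (SE 0.21), but missed the threshold (adjusted p = 0.0703), and it passed with the replicate letter as a block (-1.11, adjusted p = 0.0011). Within letters the RNA difference lay between -1.14 and -1.06.

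Hmgb1 encodes the most abundant and most studied HMGB protein. Its RNA was 295, 239.9 and 192 CPM in control A, B and C and 174, 103 and 93.3 CPM in shElp3. The groups did not overlap, and letter A was the highest library of each group in RNA. Its footprints were 194, 454 and 418 CPM in control and 179, 207 and 168 CPM in shElp3. Here control A lay within the shElp3 range, at 0.445 times the mean of controls B and C, although its RNA was 1.36 times theirs. The difference was -0.97 in RNA (SE 0.31, adjusted p = 0.241) and -0.94 in footprints (SE 0.30, adjusted p = 0.109). In RNA it passed with the letter block (-1.01, adjusted p = 0.0021), and in footprints it passed without control A (-1.25, adjusted p = 7.5e-05). In footprints it did not pass without any other single library (adjusted p from 0.234 to 0.308, edgeR). The row Hmgb1-rs17, a related sequence, took 2 to 62 counts per library against 864 to 4587 for Hmgb1. Hmgb1, Hmgn2 and Hmga1 are known to have processed copies in the genome, and how reads that match several copies were counted is not given in the sources used here, so the levels of these genes are uncertain.

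Ratios between the HMGB paralogs were taken within each library. For 1 count of Hmgb1, the control RPF libraries had 0.379, 0.745 and 0.763 counts of Hmgb2, and the shElp3 RPF libraries had 0.269, 0.356 and 0.378. All shElp3 values lay below all control values in footprints, with control A and shElp3 C nearly level, and the mean log2 ratio was -0.74 in control and -1.60 in shElp3. In RNA the same ratio overlapped between the groups, at 0.185, 0.493 and 0.616 in control A, B and C and 0.106, 0.25 and 0.222 in shElp3, and within each letter it was lower in shElp3. The ratio of Hmgb2 to Hmgb3 in RNA was 1.37, 3.01 and 3.52 in control A, B and C and 1.00, 1.37 and 1.36 in shElp3, which did not overlap but met at control A, and in footprints it overlapped. The ratio of Hmgb3 to Hmgb1 overlapped in both fractions, and its mean log2 value differed by -0.10 in RNA and -0.23 in footprints. These ratios are given as a description, with no test.

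**Figure D1:**
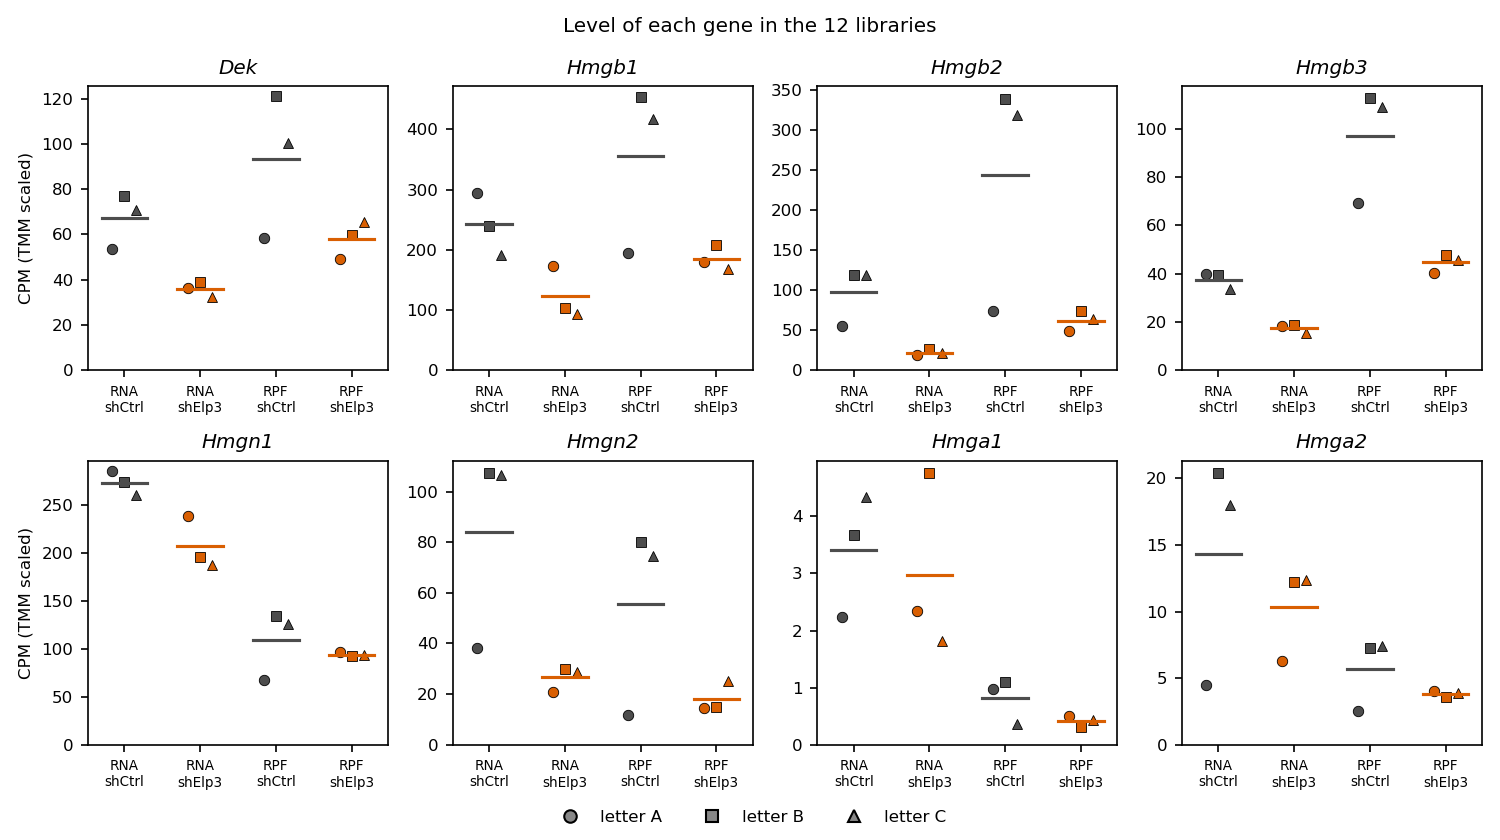
Level of each gene in the 12 libraries, in TMM-scaled CPM within a fraction (y axis from 0, scale set per gene), by fraction and shRNA (x axis). Points are libraries with the letter as the symbol, and bars are means of 3. In Hmgb2 and Hmgn2 the control A circle sits far below controls B and C in both fractions, and in Hmgb3 the shRNA groups separate in both.

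Dek RNA was 53.5, 76.9 and 70.8 CPM in control A, B and C and 36.5, 39.1 and 32.2 CPM in shElp3. The 3 shElp3 values were lower than all 3 control values, and the means were 67.1 ± 12.1 and 35.9 ± 3.49 CPM (SD, n = 3). Dek footprints were 58.3, 121 and 100.5 CPM in control and 49.2, 59.5 and 65.6 CPM in shElp3, where control A lay among the shElp3 values. The difference was -0.90 in RNA (SE 0.23, adjusted p = 0.145) and -0.68 in footprints (SE 0.26, adjusted p = 0.172). Neither passed in the main fits, which did not pair letters. With the letter block the RNA difference passed (-0.89, adjusted p = 0.0060), as it did with DESeq2 (-0.92, adjusted p = 0.0096) and without control A (-1.04, adjusted p = 0.0283). The footprint difference passed without control A (-0.94, adjusted p = 0.0015), and with DESeq2 its adjusted p was 0.113. Without any other single library Dek did not pass in edgeR. Its adjusted p then ran from 0.329 to 0.571 in RNA and from 0.279 to 0.417 in footprints, in fits that called 0 to 59 genes in all. Within letters A, B and C, the difference was -0.55, -0.97 and -1.14 in RNA and -0.24, -1.02 and -0.61 in footprints.

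Hmgn1 and Hmgn2 encode nucleosome-binding proteins that resemble each other closely, and whether they differed in response was not tested. Hmgn2 RNA was 38.3, 107 and 107 CPM in control A, B and C and 20.8, 30.1 and 28.8 CPM in shElp3, with no overlap. Hmgn2 footprints were 11.9, 80.2 and 74.6 CPM in control and 14.3, 14.7 and 25.0 CPM in shElp3, so that control A was the lowest of all 6. The Hmgn2 difference was -1.66 in RNA (SE 0.42, adjusted p = 0.139) and -1.63 in footprints (SE 0.61, adjusted p = 0.162). It passed in RNA with the letter block (-1.54, adjusted p = 0.00027) and in both fractions with DESeq2 (adjusted p = 0.0065 and 0.0393). Within letter A its footprints were 0.26 higher in shElp3, whereas within B and C the difference was -2.44 and -1.58.

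Hmgn1 RNA was 285, 273 and 261 CPM in control A, B and C and 239, 195 and 187 CPM in shElp3. The groups did not overlap, and their means were 273 ± 12.2 and 207 ± 27.7 CPM (SD, n = 3). Hmgn1 footprints were 67.1, 134 and 126 CPM in control and 96.1, 92.2 and 93.4 CPM in shElp3, with control A again lowest and the shElp3 libraries nearly equal. The difference was -0.40 in RNA (SE 0.21, adjusted p = 0.531) and -0.22 in footprints (SE 0.25, adjusted p = 0.640), and the letter block did not bring the RNA value past the threshold (adjusted p = 0.161). The Hmgn1 footprint difference passed without control A (-0.49, adjusted p = 0.0093), and it was -0.05 without control B and -0.11 without control C. For 1 count of Hmgn1, control A, B and C had 0.134, 0.393 and 0.409 counts of Hmgn2 in RNA and the shElp3 cultures had 0.0872, 0.154 and 0.154. The ratio was lower in shElp3 within each letter, although control A lay inside the shElp3 range.

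The AT-hook genes had the fewest counts of the set. Hmga2, an oncofetal gene whose mRNA is a classic let-7 target, had 60 to 223 RNA counts and 18 to 81 footprint counts per library. Its RNA was 4.47, 20.4 and 18.0 CPM in control A, B and C and 6.30, 12.2 and 12.4 CPM in shElp3, and its footprints were 2.52, 7.25 and 7.38 CPM in control and 4.02, 3.61 and 3.86 CPM in shElp3. In both fractions control A was the lowest library and the groups overlapped. The difference was -0.47 in RNA (SE 0.56, adjusted p = 0.834) and -0.60 in footprints (SE 0.40, adjusted p = 0.415), and within letter A it was above 0 in both (0.49 and 0.65). The Hmga2 RNA value was -0.91 without control A, -0.12 without control B, -0.27 without control C and -0.21 without shElp3 A, none of which passed. Its footprint value was -0.95 without control A, which passed (adjusted p = 0.0119), and -0.38 without control C, which did not. Hmga1 had 23 to 47 RNA counts, at 2.24, 3.67 and 4.33 CPM in control and 2.34, 4.75 and 1.81 CPM in shElp3, with overlapping groups (-0.22, SE 0.45, adjusted p = 0.919). With 3 to 11 counts per library, Hmga1 footprints did not pass the count filter and were not tested.

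The count filter was passed by 8 of the 8 genes in RNA and by 7 in footprints. In the main RNA fit, which did not pair letters, 1 of the 8 genes passed (Hmgb2). Of the 12274 genes tested, 1.14% passed, and 0.921% passed and were lower in shElp3. All 8 had a log2 fold change below 0, with a median of -0.94 against -0.02 over all genes, and 6 had groups that did not overlap with shElp3 lower, against 9.56% of all genes. The letter block raised the count to 5 (Dek, Hmgb1, Hmgb2, Hmgb3 and Hmgn2), against 6.75% of all genes called lower in that fit. Leaving out control A gave 4 (Dek, Hmgb2, Hmgb3 and Hmgn2; 3.01% of all genes lower). Leaving out any other single library gave 0. Those fits called 0 of all genes tested, so the 0 is not particular to the 8 genes. DESeq2 called the same 4, against 3.43% of all genes lower. Within all 3 letters shElp3 was below control for 6 of 8 genes in RNA (24.0% of all genes) and for 4 of 7 in footprints (Dek, Hmgb1, Hmgb2 and Hmgb3; 23.1%). The footprint count matches libraries by a letter that was not taken to pair them. In footprints, 1 of 7 tested genes passed (Hmgb3), against 4.83% of 11343 genes, of which 3.06% were lower. All 7 lay below 0, with a median of -0.94 against -0.01, and 1 of 7 had groups that did not overlap, against 15.3% of all genes. Without control A all 7 passed in footprints, where 14.0% of all genes were called lower. Without any other single library none of the 7 passed, in fits that called few genes at all. Those called 52 genes without control B, 59 without control C and 0 without any 1 shElp3 library. DESeq2 called 4 in footprints (Hmgb1, Hmgb2, Hmgb3 and Hmgn2), against 6.88% lower. With letters B and C only, 7 of 8 passed in RNA (all but Hmga1; 10.5% of all genes lower) and 7 of 7 in footprints (12.2%). Of the tested genes, 5 of 8 in RNA and 5 of 7 in footprints had an unadjusted p below 0.05 in edgeR, against 12.4% and 23.1% of all genes. The genes were chosen with earlier results of these data known, so these shares are descriptions and no test of the set.

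**Figure D2:**
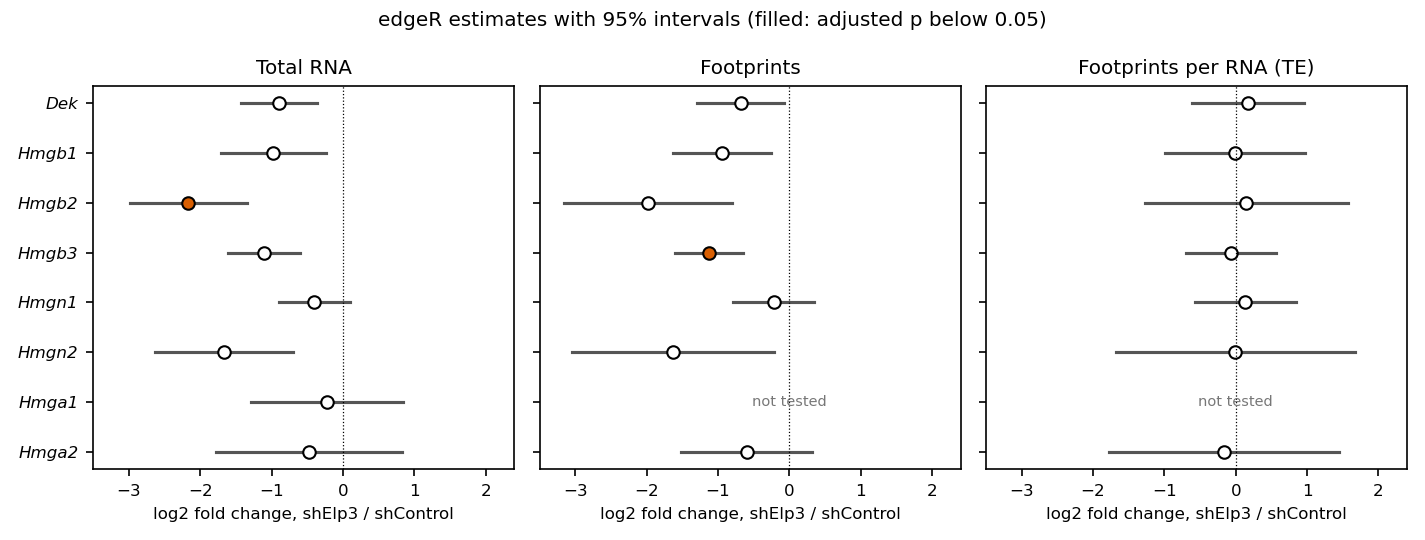
Log2 fold change of shElp3 over control (x axis) for each gene (y axis) in total RNA, in footprints and for footprints per RNA, as edgeR estimates with 95% intervals. Filled points passed the adjusted threshold: Hmgb2 in RNA and Hmgb3 in footprints, while every interval for footprints per RNA spans 0.

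The position of control A recurred across the genes. Its footprint level over the mean of controls B and C was 0.154 for Hmgn2, 0.224 for Hmgb2, 0.345 for Hmga2, 0.445 for Hmgb1, 0.515 for Hmgn1, 0.526 for Dek and 0.623 for Hmgb3. All 7 were thus lower in control A, whereas Hmga1, with 4 to 11 footprint counts in control, was at 1.35. In shElp3 cultures the same ratio ran from 0.702 for Hmgb2 to 1.08 for Hmga2 among those 7, and it was 1.36 for Hmga1. In RNA, control A was lower than B and C for Hmga2 (0.233), Hmgn2 (0.358), Hmgb2 (0.461), Hmga1 (0.559) and Dek (0.725), and not for Hmgn1 (1.07), Hmgb3 (1.09) and Hmgb1 (1.36). The summed footprints of the 8 genes were 478 CPM in control A against 1250.0 and 1155 in B and C, and 432, 499 and 465 in shElp3 A, B and C. In RNA the sums were 772, 879 and 804 CPM in control and 515, 428 and 392 in shElp3, which did not overlap.

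**Figure D3:**
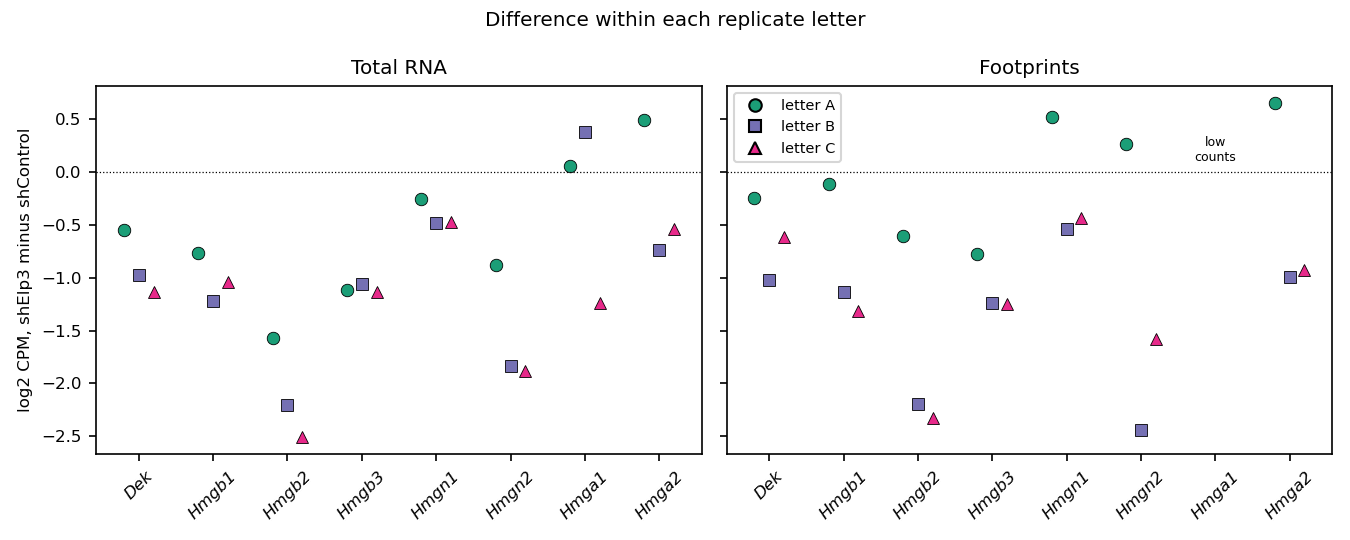
Difference of log2 CPM between shElp3 and control within each replicate letter (y axis) for each gene (x axis), in RNA and in footprints. Letters were not taken to pair in footprints. Letter A points lie above B and C for most genes in footprints, where Hmgn1, Hmgn2 and Hmga2 are above 0 in letter A and below 0 in B and C.

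Translational efficiency (TE), the footprints per RNA of a gene, addresses whether Elp3 depletion altered translation beyond the RNA level. Dek, the gene with a reported link to U34 enzymes, had a log2 ratio of footprint CPM to RNA CPM of 0.12, 0.66 and 0.50 in control A, B and C and of 0.43, 0.61 and 1.03 in shElp3. The groups overlapped, and the ratio was higher in shElp3 in letters A and C and differed by -0.05 in B. The fitted TE difference for Dek was 0.17 (SE 0.36, 95% interval -0.61 to 0.96, adjusted p = 0.9999, edgeR). This fit did not tie the footprint and RNA libraries of a culture, and it did not pair letters. With the culture as a block the Dek value was 0.21. For the other genes it was 0.15 for Hmgb2 (interval -1.28 to 1.57), 0.13 for Hmgn1 (-0.57 to 0.84), -0.005 for Hmgn2 (-1.68 to 1.67), -0.01 for Hmgb1 (-0.99 to 0.96), -0.06 for Hmgb3 (-0.69 to 0.57) and -0.17 for Hmga2 (-1.78 to 1.45). None of the 7 passed, and neither did any of the 11238 genes tested (0.0%), either in edgeR or in DESeq2. At an unadjusted p below 0.05 there were 62 genes in edgeR (0.552%), none of them among the 7. That share is far below the p threshold itself, so the TE test was conservative. Its lack of calls does not show that translation was unchanged. Of simulated TE changes of 1 log2 unit it recovered 1%, and of those of 2 log2 units 63%. The simulated libraries were drawn independently, with no effect shared within a letter or culture, so these shares need not hold here. For Dek a fall of TE by more than 0.61, and for Hmgb3 one by more than 0.69, lies outside the interval of this unpaired fit. For Hmgb2, Hmgn2 and Hmga2 the intervals reach past 1 log2 unit in both directions, so a change of that size lies within them.

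The genes differed more from each other in footprints per RNA than between the shRNAs. Hmgb3 had log2 ratios of 0.80, 1.52 and 1.70 in control A, B and C and of 1.14, 1.35 and 1.58 in shElp3, which put it at the 84.3rd to 98.7th percentile of all tested genes within a culture. Hmgb2 had 0.43, 1.52 and 1.43 in control and 1.39, 1.52 and 1.61 in shElp3, the latter between the 94.9th and 97.8th percentile. Hmgb1 lay at -0.60 in control A, 0.05 in shElp3 A and between 0.85 and 1.12 in the other cultures. The HMGN genes lay below the median of all genes, which was -0.21 to -0.14: Hmgn1 was at -2.09 to -1.003 and Hmgn2 at -1.68 to -0.20 across the 6 cultures. Hmga2 was also low, from -1.75 to -0.63. A footprint count comes mainly from coding sequence while an RNA count covers the whole transcript, so the order of these ratios between genes also carries the share of each transcript that codes, which was not measured.

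**Figure D4:**
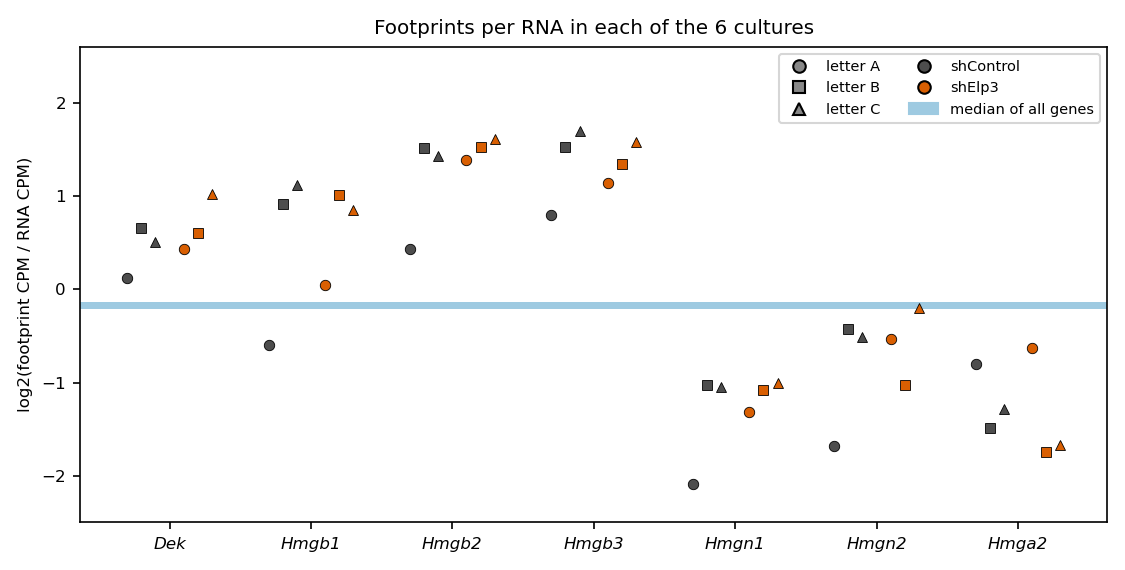
Log2 of footprint CPM over RNA CPM (y axis) for 7 genes (x axis) in each of the 6 cultures, with the range of the all-gene median over cultures as a band. Hmgb2 and Hmgb3 lie above the band in all 6 cultures and Hmgn1, Hmgn2 and Hmga2 lie below it, except for Hmgn2 in shElp3 C, which lies within it.

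The genes most like Dek over the 12 libraries, by Pearson r of log2 CPM centred within each fraction and searched over 8304 genes, were Immt, a mitochondrial inner membrane organiser (0.991), Smc3, a cohesin subunit (0.984), and Hells, a chromatin remodeller (0.982). Hmgb2 ranked 4 for Dek (0.978) and Hmgn2 ranked 71 (0.944). The genes most like Hmgb2 were Haus5, a spindle augmin subunit (0.985), Cenpm, a kinetochore protein (0.984), and Incenp, the scaffold of the chromosomal passenger complex (0.984), and Dek ranked 12. Hmgn1 was less alike, with r of 0.786 to Dek and 0.752 to Hmgb2. The 12 points come from 6 cultures and share the shRNA groups and the position of letter A, so r is given as a description.

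Other genes of the same pathways gave the following counts. Over all genes in RNA, 1.14% were called in edgeR and 12.4% had an unadjusted p below 0.05. DESeq2 called 3.43% lower in RNA and the letter block 6.75%. Over all genes in footprints, 4.83% were called in edgeR, 23.1% had an unadjusted p below 0.05, and DESeq2 called 6.88% lower. These shares apply to the lists here and below. Of 15 tested genes with HMG boxes or HMGN domains outside the 8, 0 passed in RNA (3 at an unadjusted p below 0.05, 0 in DESeq2, and 3 lower with the letter block), with a median of -0.09 and Ssrp1, a subunit of the FACT histone chaperone, at -0.02. In footprints 1 passed, the nucleosome binder Hmgn3, which fell by 0.76 (SE 0.17, adjusted p = 0.0438). Of 25 histone chaperones and reported DEK partners, which share Ssrp1 with the list before, 0 passed in RNA in edgeR (7 unadjusted, 5 lower in DESeq2, 9 lower with the letter block), though 23 lay below 0, with a median of -0.45. The nucleolar chaperone Npm1 was at -0.91 (SE 0.41, adjusted p = 0.431), and the DEK partner Set was at -0.72 (SE 0.23, adjusted p = 0.227). In footprints the replication-coupled chaperone Asf1b fell by 1.58 (SE 0.27, adjusted p = 0.0275), and it was the 1 of 25 to pass. In both lists the share called in footprints was thus near the 4.83% over all genes. The median of the list in footprints was -0.23.

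Linker histones, which compete with HMG proteins for nucleosomes, had 5 tested genes, and 0 passed in either fraction in edgeR (3 unadjusted in each, and 3 lower in DESeq2 in each). The letter block called 3 of them lower in RNA. Their medians were -1.05 in RNA and -1.06 in footprints. The 2 most abundant are given as values, and the difference between them was not tested. Hist1h1e, a replication-coupled H1, was at -1.05 (SE 0.31, adjusted p = 0.202) in RNA and -1.06 (SE 0.30, adjusted p = 0.0910) in footprints, and H1f0, the replacement H1 of resting cells, was at -0.05 (SE 0.24) and -0.10 (SE 0.21). Of the genes around let-7 and Hmga2 mRNA, 0 of 9 passed in RNA and 0 of 6 in footprints (0 unadjusted and 0 in DESeq2 in both), with Dicer1 at 0.04 and 0.10 and Drosha at -0.15 and 0.01. Of the receptors of extracellular HMGB1, 0 of 5 and 0 of 4 passed (0 unadjusted and 0 in DESeq2 in both), with Sdc1 at -0.08 and -0.03 and Tlr4 at 0.35 and 0.49. Of 5 tested genes that earlier work linked to ELP3 or U34 enzymes, Dek among them, 0 passed in either fraction (1 unadjusted in each, and in DESeq2 1 lower in RNA, which was Dek, and 0 in footprints), with Ldha at -0.46 in RNA and -0.13 in footprints. Of 14 U34 modification genes, Elp3 in footprints was the 1 to pass.

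Cell cycle and replication genes moved in the same libraries. Of 40 such genes, none of them among the 8, 26 fell in RNA, with a median of -2.19, and 25 fell and 1 rose in footprints, with a median of -2.07. All 40 lay below 0 in RNA, where DESeq2 called 38 lower and the letter block 39, and DESeq2 called 35 lower in footprints. Ccnb1, a mitotic cyclin, fell by 2.51 in RNA (SE 0.24, adjusted p = 0.0159), and Aurkb, a mitotic kinase, fell by 2.47 in footprints (SE 0.29, adjusted p = 0.0124). Their summed RNA was 2927, 5021 and 4039 CPM in control A, B and C and 880.0, 1094 and 1133 in shElp3, and their summed footprints were 3106, 8727 and 6896 CPM in control and 1277, 1871 and 2094 in shElp3. Control A was thus the lowest control in these sums too, as it was for the footprints of 7 of the 8 genes. The part of this list in the values of Dek and the HMG genes was not tested. Hmgb2, at -2.17 in RNA, lay near the median of the list. Dek and Hmgb1, at -0.90 and -0.97, lay nearer to the all-gene median, though only 4.66% and 3.94% of the tested genes lay below them.

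**Figure D5:**
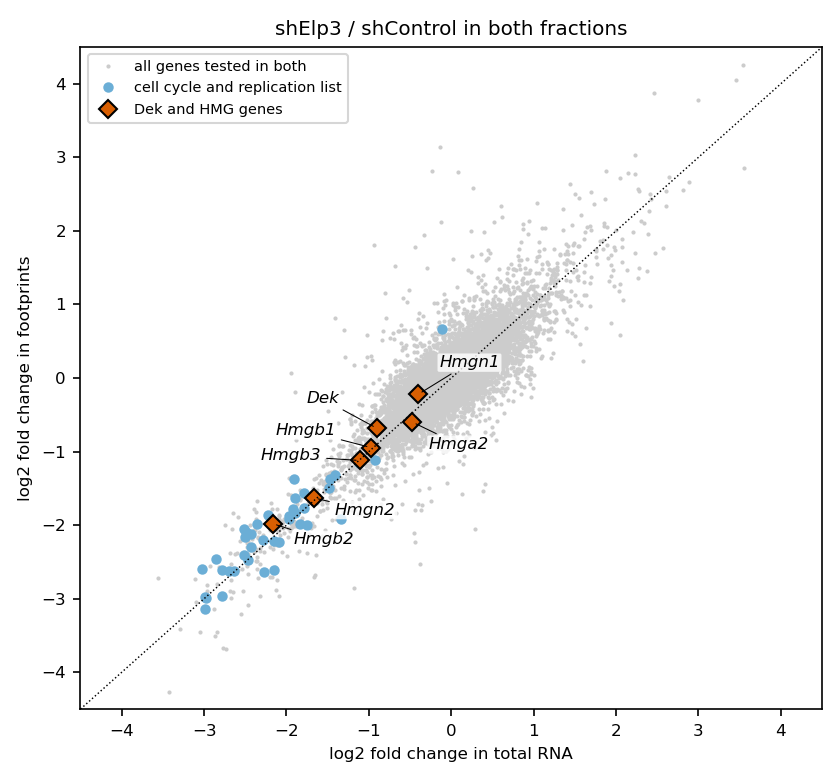
Log2 fold change of shElp3 over control in footprints (y axis) against total RNA (x axis). Grey points are all genes tested in both fractions, blue points the 40 cell cycle genes and orange diamonds 7 of the genes described here, and the dotted line marks equal values. The 7 diamonds lie close to the line, from Hmgn1 near 0 to Hmgb2 among the cell cycle genes.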

How the data were processed

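Whole-number read counts per gene symbol, not normalized, were deposited by the authors as 1 table of 12 libraries. The tools named per the submitters' processing notes are TopHat2 2.1.1, HTSeq, Bowtie and bcl2fastq, with the build mm10, and libraries came from the TruSeq Ribo Profile kit, per the labels' protocols. Annotation, strand setting and treatment of multiply mapped reads: not given in the sources used here. The 8 genes, companion lists and markers were chosen with earlier results of these data known.

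Genes were kept with filterByExpr (minimum count 10) per fraction, and for TE in both, scaled by TMM and tested with glmQLFit and glmQLFTest (edgeR 4.0.16, R 4.3.3), adjusted by Benjamini-Hochberg over all genes at 0.05. TE was the interaction of fraction and shRNA over 12 libraries. The SE is the log2 fold change over the root of F. Counts limit precision for Hmga1 and Hmga2. Alternatives were DESeq2 1.42.0, RLE factors, no count filter, a replicate block, letters B and C, a culture block (TE) and leaving out each library. The script was tested on simulated data with changes of 1 or 2 log2 units, with each library drawn independently. It recovered 3% and 49% of them in RNA, 38% and 94% in footprints, and 1% and 63% in TE. False calls numbered 3 of 55 in RNA, 18 of 150 in footprints and 1 of 65 in TE. Promoters came from a RefSeq table (GRCm38.p6) in which all 8 genes matched. Protein sequences were not used here, so a planned description of amino acid composition was not made.

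Genes named beyond the 8 were Elp3, up to 3 called genes of each list by adjusted p or, with none called, up to 2 of the most abundant, and the 3 most like Dek and Hmgb2. Markers named for being at 0, and Hmgb1-rs17, were chosen after their values were seen. Same-letter libraries of both shRNAs had correlations of deviations from group means of 0.798 (A), 0.406 (B) and 0.571 (C) in RNA and of 0.741, 0.438 and 0.469 in TE, so letters were taken to pair these samples. The main RNA and TE fits left this pairing out, and only the fits with the replicate block used it. B and C also correlated across letters (0.674 and 0.568 in RNA). In RPF the same-letter values were 0.308, -0.107 and 0.210, and letters were not taken to pair. No pair of replicates agreed within sampling noise: chi-square per degree of freedom was at least 8.70.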

Additional observations from a re-analysis of the deposited data

How the results depend on the processing

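Sensitivity of the counts was high. Genes called in RNA numbered 140, and 652 with DESeq2, 1499 with the replicate block, 2377 with letters B and C, and 0 to 540 leaving out 1 library each. Genes called in footprints numbered 548, and 1308 with DESeq2, 2477 with letters B and C, and 0 to 2856 leaving out 1 library. Of the 8 genes, 1 was called in RNA, and 4 with DESeq2, 5 with the replicate block, 7 with letters B and C, and 0 to 4 leaving out 1 library. In footprints 1 was called, and 4 with DESeq2, 2 with no count filter (Hmgb2 and Hmgb3), 2 with the replicate block (the same 2, with 666 genes in all), 7 with letters B and C, and 0 to 7 leaving out 1 library. In footprints the letters were not taken to pair, and control B correlated best with shElp3 C. For TE, 0 genes were called under every setting except letters B and C (2 genes, neither among the 8), and the replicate block and culture block changed no TE call. Calls in the fits that leave an arm with 2 libraries rest on fewer samples, and the cause of the other shifts was not tested. Log2 fold changes in RNA and footprints stayed below 0 under every setting, except for Hmga1 RNA, which ran from -0.711 to 0.0592 (without shElp3 C) leaving out 1 library. TE estimates near 0 changed sign. For Hmgb1 it was 0.0122 with DESeq2, 0.012 with RLE, 0.0973 with the replicate block, 0.0929 with the culture block and -0.465 to 0.389 leaving out 1 culture. For Hmgn2 it was 0.0246, 0.0236, 0.148 and 0.208 under the same 4 settings and -0.254 to 0.23 leaving out 1 culture. Leaving out 1 culture moved Hmgb3 from -0.285 to 0.0942, Hmga2 from -0.411 to 0.0291 and Hmgn1 from -0.141 to 0.31, and Hmgn1 was -0.0278 with letters B and C.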
